A study of Mus musculus with 5 samples.

Results

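Ctla2a and Ctla2b are 2 of the 27998 genes counted in a single-cell RNA sequencing series of mouse skin immune cells, and they were picked by their symbols. They were chosen because they lead the genes of an epidermal T cell population in these same libraries, so their high level in T cells is given below as a description, with no test. The cells were live CD45+ cells, sorted from digested dermis of C57BL/6 mice with no further genotype named, and captured on the 10x Genomics platform with 3′ chemistry. There were 5 libraries and 1 library for each group: skin at postnatal day 45 (P45), P50, P63 and P80 with no treatment named, ages that the design places within hair follicle rest, and P50_Depil5D, whose label names P50 and 5 days after depilation, a plucking of the hair that starts a new growth phase. Which of these ages the skin was plucked at, and the number of mice in a library, are not given in the labels. With 1 library per group no difference between groups could be tested, and every interval below is a 95% interval that covers counting error only. The sort label was checked against Ptprc, the gene of CD45. A Ptprc UMI (a counted molecule) was seen in 21.1% to 51.8% of the cells of a library, and in 43.2% to 59.9% of the T cells defined below.

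The CTLA-2 proteins are small inhibitors of cysteine cathepsins, the proteases that work mostly in lysosomes. They resemble the propeptide of cathepsin L, the stretch that keeps that enzyme inactive until it is cut off, and they carry no protease domain of their own. Both genes were first found as transcripts of activated T cells. In mouse epidermis, gamma-delta T cells with a dendritic shape stand among the keratinocytes and keep watch over the barrier. Such cells carry natural killer type receptors and express growth factors such as amphiregulin (Areg). The deposited gene table held 0 of 9 T cell receptor constant genes asked for, so gamma-delta and alpha-beta T cells were not separated by their receptors.

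The genes lie on mouse chromosome 13 of the mm10 (GRCm38) build, both on the minus strand. Ctla2b (ENSMUSG00000074874) covers chr13:60895350-60897447 and Ctla2a (ENSMUSG00000044258) covers chr13:60934155-60936625 in the GENCODE vM21 annotation, 36.7 kb apart. Their main transcripts have 5 exons each. The coding sequence of Ctla2a has 414 bases and that of Ctla2b 342, because the Ctla2a reading frame is annotated from a start codon 72 bases further upstream. Over the 342 bases that both share, 96.2% were identical. The first 300 shared coding bases are printed because they hold all 13 bases by which the coding sequences differ. They run 5′ to 3′ through exons 2 to 4, and capitals mark the 13 differing bases. They begin at coding base 73 of Ctla2a and at coding base 1 of Ctla2b.
Ctla2a: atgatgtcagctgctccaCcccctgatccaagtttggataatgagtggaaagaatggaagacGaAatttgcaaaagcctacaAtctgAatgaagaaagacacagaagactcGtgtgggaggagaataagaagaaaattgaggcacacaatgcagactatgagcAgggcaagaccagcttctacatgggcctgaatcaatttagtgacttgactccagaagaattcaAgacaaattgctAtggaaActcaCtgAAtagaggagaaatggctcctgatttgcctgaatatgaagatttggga
Ctla2b: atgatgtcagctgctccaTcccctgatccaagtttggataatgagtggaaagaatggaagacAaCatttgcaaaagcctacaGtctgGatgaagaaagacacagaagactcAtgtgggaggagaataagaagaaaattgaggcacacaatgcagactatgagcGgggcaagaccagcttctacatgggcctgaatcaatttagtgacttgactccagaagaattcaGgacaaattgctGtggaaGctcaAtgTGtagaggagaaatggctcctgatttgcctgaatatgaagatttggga

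The stretch after the stop codon, near the 3′ end where the reads of this assay fall, was 865 bases long in Ctla2a and 356 in Ctla2b, and 73.1% of 364 aligned columns of it were identical. The last 300 bases of each transcript, which are not matching positions because of that length difference, were 47.7% identical. How the authors' counting treated reads that fit both genes is not given in the sources used here, so the split between the 2 genes carries that uncertainty. The best local match of the Ctla2a coding sequence in that of cathepsin L (Ctsl) was 55.8% identical over 394 aligned columns.

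The 5 libraries held 1032621 to 7491878 UMIs in 497 to 2153 barcodes, and 6162 of 6223 barcodes were kept. The libraries also differed in other ways. Reads of ribosomal protein genes can be assigned to their processed pseudogenes, and the median share so assigned was 3.51% for P50_Depil5D, 3.70% for P50, 7.08% for P45, 18.5% for P63 and 25.0% for P80. Barcodes that occurred in another library made up 0.560% of the cells of P45, 12.05% of P50_Depil5D, 13.6% of P50, 34.0% of P63 and 50.6% of P80. Each library also held 64 to 332 low-share cells, which lay under 0.5 of the typical pseudogene share of that library. Scrublet marked 0.341% of cells as doublets, too few to be taken as a working call, so doublets remain. Levels in Cd3-positive cells are also given without the shared barcodes.

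Cells were sorted into gates by marker UMIs. Cd3d, Cd3e and Cd3g encode CD3 chains, which signal for T cell receptors. A cell was Cd3-positive with at least 2 UMIs of these genes together and with no other lineage's markers past their limits. There were 1879 such cells: 389 for P45, 597 for P50, 140 for P63, 81 for P80 and 672 for P50_Depil5D. They held 21707 of the 24035 Ctla2a UMIs (90.3%) and 2092 of the 2371 Ctla2b UMIs (88.2%), while they made up 30.5% of all cells.

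Levels are given as CPM, the UMIs of the gene over all UMIs of the cells summed, scaled to 1000000. Since each UMI stands for 1 molecule tagged at its 3′ end, CPM of different genes need no correction for length. In Cd3-positive cells the Ctla2a level was 1517 CPM for P45 (1455 to 1582), 8637 for P50 (8463 to 8814), 1158 for P63 (1049 to 1275), 1378 for P80 (1211 to 1561) and 7644 for P50_Depil5D (7491 to 7800). P50 and P50_Depil5D thus stood far above the other 3 libraries. P63 was the lowest, and P80 over P63 was 1.19 (1.01 to 1.40), while the intervals of P80 and P45 overlapped. The Ctla2b level was 182 CPM for P45 (161 to 206), 761 for P50 (710 to 815), 109.6 for P63 (77.9 to 149.8), 167 for P80 (113 to 239) and 753 for P50_Depil5D (705 to 803). Ctla2b showed the same high pair of libraries at a lower level, with overlapping intervals for P50 and P50_Depil5D.

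**Figure D1:**
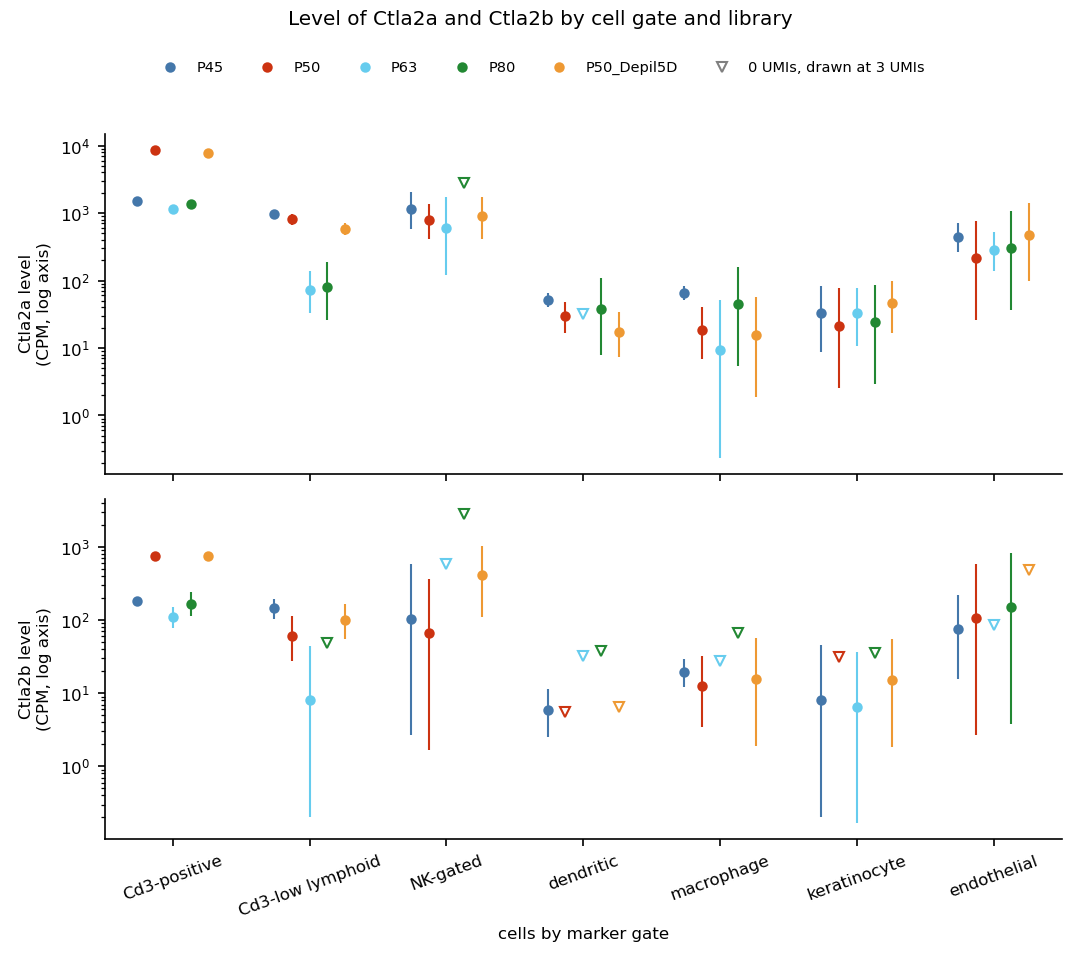
Level of Ctla2a (top) and Ctla2b (bottom) in CPM on a log axis, by marker gate (horizontal axis) and library (colours). Bars are exact 95% Poisson intervals of counting error, and open triangles mark 0 UMIs, drawn at the level that 3 UMIs would give. In the Cd3-positive cells P50 and P50_Depil5D lie at 8637 and 7644 CPM of Ctla2a and the other libraries at 1158 to 1517.

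Without cells of a shared barcode the Ctla2a level of Cd3-positive cells was 1502 CPM for P45, 9286 for P50, 1723 for P63, 2773 for P80 and 7974 for P50_Depil5D. Leaving out these cells, 18 of 81 at P80 and 19 of 140 at P63, raised both libraries and put both above P45. P45 over P63 was then 0.872 (0.775 to 0.984), beside 1.31 (1.18 to 1.46) with these cells. P45 in place of P63 was thus the lowest library for Ctla2a. The Ctla2b level without them was 183, 815, 162, 316 and 789 CPM in the order P45, P50, P63, P80 and P50_Depil5D. Without low-share cells the levels were 1445, 7993, 1175, 1353 and 7056 CPM in the order P45, P50, P63, P80 and P50_Depil5D. With Cd3-positive cells of under 0.5% keratin UMIs, they were 2070, 11092, 1748, 2629.6 and 9678 CPM. P50 and P50_Depil5D were the highest libraries in all of these settings.

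Other cells had little of either gene. Dendritic cells, gated by Flt3, Cd209a, Cd207 and other markers, had a Ctla2a level of 51.3 CPM for P45 (70 UMIs in 429 cells), 29.6 for P50 (16 UMIs in 145 cells), 37.7 for P80 (3 UMIs in 34 cells) and 17.3 for P50_Depil5D (8 UMIs in 139 cells). In P63 there were 0 UMIs in 34 dendritic cells, with an upper limit of 39.1 CPM. The mean of the 5 libraries in Cd3-positive cells was 150-fold that in dendritic cells for Ctla2a, and 22.9-fold where cells that passed more than 1 gate were counted. By library the Ctla2a ratio was 29.6 for P45 (23.3 to 38.1), 292 for P50 (180 to 511), 36.6 for P80 (12.4 to 179) and 442 for P50_Depil5D (224 to 1024). At P63, with 0 dendritic UMIs, the lower limit of the ratio was 29.5, and setting the dendritic count to 3 UMIs gave 36.4. For Ctla2b the ratio of the means was 336, or 27.2 with cells that passed more than 1 gate. It rested on 8 UMIs in the dendritic cells of P45, where the ratio was 31.1 (15.5 to 72.8), as the other 4 libraries had 0. Against a floor of 3 UMIs the Ctla2b level of Cd3-positive cells was at least 137-fold higher than that of dendritic cells at P50, at least 3.45-fold at P63, at least 4.44-fold at P80 and at least 116-fold in P50_Depil5D.

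Macrophages, gated by C1q genes, Mrc1, Csf1r and other markers, had 65.0 CPM of Ctla2a for P45 (51.0 to 81.7), 18.7 for P50, 9.19 for P63, 44.1 for P80 and 15.7 for P50_Depil5D. Keratinocytes, defined by at least 2% keratin UMIs, had 21.1 to 45.8 CPM over the libraries, with 2 to 6 UMIs in each. With a gate of 0.5% keratin, set after the strict gate was seen to hold 165 cells, the keratinocyte level of Ctla2a was 22.8 to 52.1 CPM from 12 to 38 UMIs. With the strict gate, dendritic cells, macrophages and keratinocytes of 1 library overlapped in their intervals in all 5 libraries. With the gate of 0.5%, the keratinocytes of P45 (29.99 CPM, 21.2 to 41.2) lay below the macrophages of P45.

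The share of cells with a Ctla2a UMI gives the same picture. It was 79.2% of Cd3-positive cells (median depth 1462 UMIs), 10.2% of dendritic cells (2835 UMIs), 9.19% of macrophages (2236 UMIs) and 10.3% of keratinocytes (2196 UMIs). The last 3 shares lie close together. Across libraries their levels did not follow those of the T cells, since dendritic cells and macrophages had their highest level at P45. The T cell transcript Nkg7 was also higher at P45 than at P50 and P50_Depil5D, at 19.1, 0 and 2.16 CPM in dendritic cells. In macrophages it was at 48.1, 12.5 and 7.85 CPM. P63 and P80 held 1 or 2 Nkg7 UMIs per gate. Ctla2a UMIs per Nkg7 UMI were 2.50 in Cd3-positive cells, 3.23 in dendritic cells (2.13 to 5.05), 1.33 in macrophages and 0.76 in keratinocytes. For Cd7, also a T cell transcript, they were 2.52, 0.261, 0.641 and 1.73. For Cd247, another T cell transcript, they were 12.7, 10.8 (5.45 to 24.3), 8.40 (4.35 to 18.2) and 4.75 (1.58 to 19.2). Dendritic cells held 372 Cd7 UMIs, beside 30 of Nkg7 and 9 of Cd247. The source of the Ctla2a UMIs in dendritic cells, macrophages and keratinocytes was not tested. The share of cells with a Ctla2b UMI was 48.3%, 0.896%, 3.83% and 1.82% in the same order of gates. In macrophages, Ctla2a made up 75.0% of the UMIs of both genes (65.9 to 82.7, from 84 and 28 UMIs), below the 91.2% of Cd3-positive cells (90.8 to 91.6) and the 92.4% of dendritic cells (85.5 to 96.7). Of the 28 macrophage UMIs of Ctla2b, 22 came from P45.

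Among the non-lymphoid gates of more than 1 cell, endothelial cells had most Ctla2a. The sort was for CD45+ immune cells, so these are few cells that passed it and not a sample of skin endothelium. The gate, set by Pecam1, Cdh5, Kdr and other markers, held 36 cells, and 55.6% of them had a Ctla2a UMI (38.1 to 72.1). Their level was 449 CPM for P45, 213 for P50, 285 for P63, 301 for P80 and 477 for P50_Depil5D, from 18, 2, 10, 2 and 3 UMIs. The 5 values lie between those of dendritic and Cd3-positive cells, with wide and overlapping intervals. Summed over the libraries the level was 359 CPM from 35 UMIs, against 1 UMI each of the T cell transcripts Nkg7, Cd7 and Cd247. In Cd3-positive cells there were 2.50 Ctla2a UMIs for each Nkg7 UMI.

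Lymphoid cells outside the Cd3 gate formed another group with Ctla2a. Cells with at least 2 UMIs of Thy1, Il7r, Lat, Skap1 and Il2rb, with at most 1 Cd3 UMI and in no other gate, are called Cd3-low lymphoid. They had a Ctla2a level of 960.2 CPM for P45 (853 to 1077), 806 for P50 (669 to 964), 71.7 for P63 (32.8 to 136), 81.2 for P80 (26.4 to 189) and 586 for P50_Depil5D (470 to 722). Here P45 was the highest library and overlapped with P50, while P63 and P80 were the lowest. P50 over P45 was 0.840 in these cells (0.673 to 1.04), beside 5.69 in Cd3-positive cells. Among those without any Cd3 UMI the levels were 743, 803, 42.3, 56.2 and 583 CPM in the same order of libraries. The Ctla2b level of Cd3-low lymphoid cells was 144 CPM for P45, 60.5 for P50 and 99.8 for P50_Depil5D. For Ctla2b there was 1 UMI in 49 such cells of P63 and 0 UMIs in 22 of P80.

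NK-gated cells, with at least 2 UMIs of Ncr1, Klrb1c, Eomes, Klra4 and Klra8 and at most 1 Cd3 UMI, numbered 16. Natural killer cells share many transcripts with epidermal T cells. The Ctla2a level of NK-gated cells was 1153 CPM for P45, 791 for P50, 591 for P63 and 915 for P50_Depil5D, from 11, 12, 3 and 9 UMIs, and the 1 such cell of P80 had none. A looser gate of 1 UMI, added after the data were seen, could also take cells counted above as Cd3-low lymphoid or in no gate. With it the level was 2132 CPM for P45 (1627 to 2745, 60 UMIs in 11 cells), 853 for P50, 466 for P63, 0 for P80 and 977 for P50_Depil5D. That put P45 above its Cd3-positive cells. With the gate of at least 2 UMIs, the mean over libraries was 25.4-fold that of dendritic cells, from 35 UMIs in all. It was 3.77-fold where cells that passed more than 1 gate were counted. Nkg7, a granule gene of cytotoxic lymphocytes, was at 2702 CPM in NK-gated cells and 2018 in Cd3-positive cells, so the NK-gated cells had 0.318 Ctla2a UMIs for each Nkg7 UMI (0.211 to 0.469).

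To compare single cells at equal depth, each cell was thinned to 1000 UMIs, which left out 0 Cd3-positive cells of P45, 147 of P50, 4 of P63, 35 of P80 and 98 of P50_Depil5D. At that depth 54.0% of Cd3-positive cells had a Ctla2a UMI for P45, 80.4% for P50, 41.2% for P63, 43.5% for P80 and 81.5% for P50_Depil5D. Without thinning the shares were 71.7%, 85.3%, 55.0%, 56.8% and 85.9%. The difference between libraries lay in how much the cells had as well as in how many had any. Cells with 5 or more Ctla2a UMIs of 1000 made up 18.0% for P45 (14.3 to 22.2), 63.3% for P50 (58.7 to 67.8), 11.8% for P63 (6.88 to 18.4), 4.35% for P80 (2 of 46 cells, 0.531 to 14.8) and 65.5% for P50_Depil5D (61.5 to 69.4). Among these cells the median was 8 UMIs for P45, 15 for P50, 9 for P63 and 13 for P50_Depil5D. The highest Cd3-positive cell had 27, 45, 15, 6 and 55 Ctla2a UMIs of 1000 in the order P45, P50, P63, P80 and P50_Depil5D. Thinned to 500 UMIs, which kept all 81 cells of P80, the mean was 1.49 Ctla2a UMIs at P80 and 1.14 at P45, while at 1000 UMIs it was 1.02 and 2.28. The order of these 2 libraries thus rests on which cells are counted.

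The distribution within P50 and P50_Depil5D was broad. Of the 450 thinned cells of P50, 88 had 0 UMIs and 100 had 20 or more. In P50_Depil5D these were 106 and 91 of 574 cells. Ctla2b rarely reached 5 UMIs of 1000, with 2 cells for P45, 6 for P50, 6 for P50_Depil5D and 0 for P63 and P80.

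Markers within the Cd3-positive cells showed where the high cells were. The epidermal marker subset holds cells with at least 3 UMIs of Fcer1g, Klre1, Xcl1, Klrk1 and Itgae, genes of receptors, a chemokine and an integrin known from epidermal T cells. It made up 61.2% of the Cd3-positive cells of P45, 77.1% of P50, 42.9% of P63, 43.2% of P80 and 76.2% of P50_Depil5D. This subset depends on UMIs per cell, and its marker list was set with results of these libraries known. Its Ctla2a level was 2405 CPM for P45 (2302 to 2512), 10787 for P50 (10566 to 11012), 2251 for P63 (2017 to 2505), 2339 for P80 (2014 to 2701) and 9612 for P50_Depil5D (9415 to 9812). Cd3-positive cells outside it had 268 CPM for P45, 1332 for P50, 364 for P63, 619 for P80 and 1469 for P50_Depil5D. Both parts were thus highest at P50 and P50_Depil5D, and in every library the subset lay above the rest. A few cells carried the value outside the subset: among cells thinned to 1000 UMIs, 5 of 98 held 74.4% of the Ctla2a UMIs at P50, and 17 of 137 held 70.6% in P50_Depil5D. Of the subset's cells thinned to 1000 UMIs, those with 5 or more Ctla2a UMIs were 28.6% for P45, 79.5% for P50, 26.3% for P63, 11.8% for P80 and 82.2% for P50_Depil5D.

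**Figure D2:**
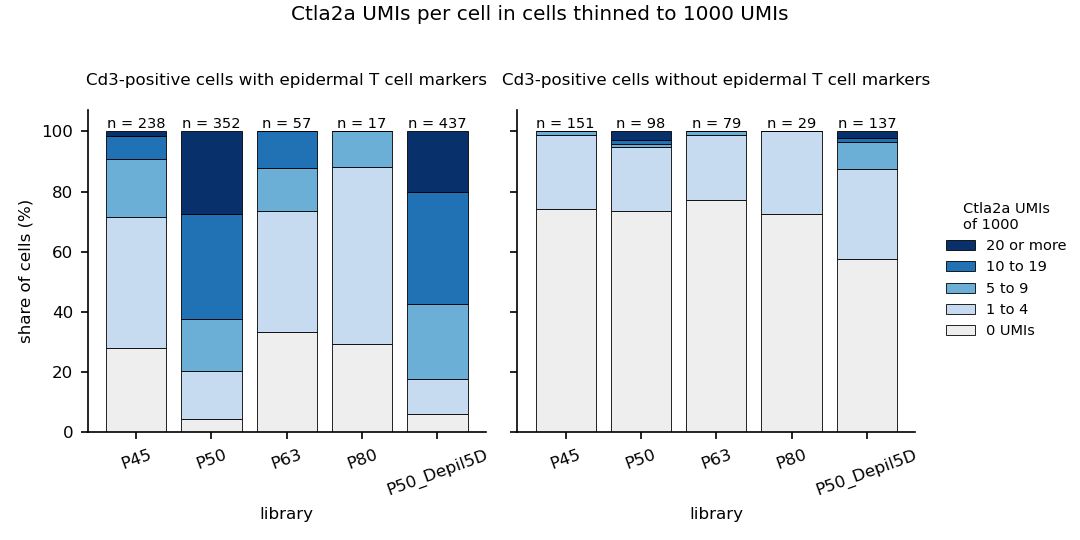
Share of Cd3-positive cells (vertical axis, percent) by the number of Ctla2a UMIs in cells thinned to 1000 UMIs, for each library. Cells on the left had at least 3 UMIs of the epidermal T cell markers before thinning, and cells on the right had fewer. The number of cells stands above each bar. In P50 and P50_Depil5D 79.5% and 82.2% of the cells on the left had 5 or more UMIs, against 11.8% to 28.6% in the other 3 libraries.

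Subsets marked by other T cell genes were small. A cell could be in such a subset and in the epidermal marker subset at once. The levels below therefore are not those of cells without the epidermal markers. Cells with a Foxp3 UMI, the marker of regulatory T cells, had 1251 CPM of Ctla2a for P45 (25 cells), 618 for P50 (13 cells), 329 for P63 (4 cells), 254 for P80 (3 cells) and 1001 for P50_Depil5D (11 cells). At P45, 3 of the 25 cells held 46 of the 83 UMIs. Cells with a Cd4 UMI, 3 to 17 per library, had 373 to 1404 CPM. Cells with a UMI of Cd8b1, a co-receptor chain of cytotoxic T cells, had 783, 1673, 863, 205 and 2282 CPM in the order P45, P50, P63, P80 and P50_Depil5D. These came from 23, 5, 18, 5 and 28 cells. At P50 1 cell held 8 of the 9 UMIs, and in P50_Depil5D 3 cells held 66 of the 105 UMIs. None of these 3 subsets showed the level of the epidermal marker subset at P50 and P50_Depil5D.

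**Figure D3:**
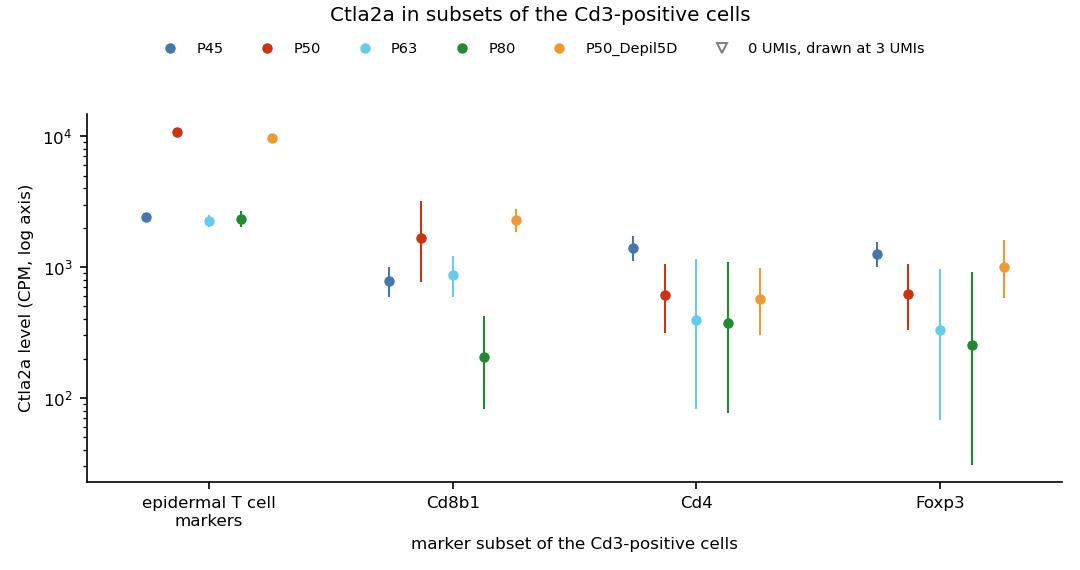
Ctla2a level (vertical axis, CPM, log axis) in marker subsets of the Cd3-positive cells (horizontal axis) by library (colours), with exact 95% Poisson intervals of counting error. The epidermal marker subset of P50 and P50_Depil5D lies at 10787 and 9612 CPM, above all other points.

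The design sets the ages along the resting phase against each other, and depilated skin against P50. Between the ends of the age range, P80 over P45, the ratio in Cd3-positive cells was 0.908 for Ctla2a (0.793 to 1.04) and 0.918 for Ctla2b (0.607 to 1.34). Neither gene was past a 2-fold difference, where 4.73% of 9172 genes were higher and 7.66% lower (12.4% in either direction), each gene counted on a log2 scale with 10 CPM added and at least 10 UMIs. Without cells of a shared barcode the ratio was 1.85 for Ctla2a (1.59 to 2.14) and 1.73 for Ctla2b (1.06 to 2.67). The direction of this comparison thus turned when they were left out. For Ctla2a it also turned with keratinocyte gates of 1% and 0.5% (1.32 and 1.27), but not with a gate of 4% (0.907). The gate of 1% turned it for Ctla2b too. A mean over single cells turned it for both genes, and a Cd3 gate of 4 UMIs for Ctla2a. Depilated skin over P50 gave 0.885 for Ctla2a (0.860 to 0.911) and 0.989 for Ctla2b (0.9001 to 1.09). Neither gene was past a 2-fold difference here either, where 0.287% of 9423 genes were higher and 0.191% lower (0.478% in either direction). The interval of Ctla2b spans 1, and with no replicate the difference between libraries of 1 kind is not known.

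The larger differences lay between P50 and its neighbours in age. P50 over P45 was 5.69-fold for Ctla2a (5.43 to 5.97) and 4.17-fold for Ctla2b (3.63 to 4.81), and both genes were past a 2-fold difference, where 3.02% of 10121 genes were higher and 3.55% lower (6.57% in either direction). P63 over P50 was 0.134 for Ctla2a (0.121 to 0.148) and 0.144 for Ctla2b (0.102 to 0.199), where 4.46% of 8475 genes were past 2-fold lower and 5.70% higher (10.2% in either direction). P80 over P63 was 1.19 for Ctla2a and 1.53 for Ctla2b (0.916 to 2.52). Neither gene was past 2-fold there, where 5.52% of 5667 genes were higher and 7.31% lower (12.8% in either direction). Comparisons of neighbouring ages share a library, so they are not independent. Within the epidermal marker subset P50 over P45 was 4.49 for Ctla2a (4.27 to 4.71) and 3.20 for Ctla2b (2.77 to 3.70). Outside it, the ratio was 4.98 (4.11 to 6.05) and 5.70 (2.81 to 12.3), while 74.2% of these thinned cells at P45 and 73.5% at P50 had 0 Ctla2a UMIs. Without shared barcodes and low-share cells P50 over P45 was 6.01 for Ctla2a and P63 over P50 was 0.203.

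Several measures moved with these differences. The Cd3 genes of the gate were also higher at P50 than at P45, by 2.59-fold for Cd3d, 3.95-fold for Cd3e and 3.35-fold for Cd3g. The 9 genes that T cells should lack (Krt14, Krt5, H2-Ab1, Cd74, C1qb, Lyz2, Col1a1, Col3a1 and Pecam1) summed to 9887 CPM in the Cd3-positive cells of P45, 2829.8 for P50, 4937 for P63, 8523 for P80 and 2894 for P50_Depil5D. All 9 were detected for P45 and P50, 8 for P63 and 7 each for P80 and P50_Depil5D. C1qb and Col3a1, markers of macrophages and fibroblasts, were those at 0 at P80 and P50_Depil5D. The libraries with the lowest sums, and with the lowest shares of ribosomal pseudogenes, were thus those with most Ctla2a. Their part in the result was not tested, and with 1 library per group the library and the group cannot be told apart.

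Other lists of genes over the same Cd3-positive cells show what moved with the pair from P45 to P50. Of 22 epidermal T cell genes counted, a list set with results of these data known, 8 were past 2-fold higher and 3 past 2-fold lower, with a median log2 ratio of 0.54, beside -0.04 over all genes counted. Areg was 157 CPM at P45 and 1085 at P50, a 6.92-fold difference (6.00 to 8.01). Xcl1, a chemokine that draws dendritic cells, was 528 and 2354 CPM. Gzmc, a granzyme, went the other way with 1217 CPM at P45 and 509.6 at P50. Of 17 conventional and regulatory T cell genes counted 0 were past 2-fold higher and 2 past 2-fold lower, with a median of -0.11. These counts stand beside 3.02% of all genes past 2-fold higher and 3.55% lower. Of 7 natural killer cell genes 1 was past 2-fold higher and 4 lower, with a median of -1.10. From P50 to P50_Depil5D 0 of 22 epidermal T cell genes were past 2-fold in either direction, with a median of -0.08 beside -0.01 over all genes counted. From P45 to P80 0 were higher and 4 lower, with a median of -0.26 beside -0.03, where 4.73% of all genes were higher and 7.66% lower.

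The genes of the pair were found in the same cells. Of the 1488 Cd3-positive cells with a Ctla2a UMI 59.8% also had a Ctla2b UMI, and of the 908 with a Ctla2b UMI 98.0% had Ctla2a. Cells with Ctla2b alone numbered 18. The UMI ratio of Ctla2a to Ctla2b was 8.33 for P45 (7.32 to 9.50), 11.4 for P50 (10.6 to 12.2), 10.6 for P63 (7.60 to 15.1), 8.23 for P80 (5.62 to 12.5) and 10.2 for P50_Depil5D (9.49 to 10.9). P45 lay below P50 with no overlap of intervals, and the other libraries lay between or overlapped. In cells thinned to 1000 UMIs the mean Ctla2b count was 0.0459 in 479 cells without Ctla2a, 0.229 in 367 cells with 1 to 4 UMIs, 0.779 in 240 cells with 5 to 9, 1.34 in 314 cells with 10 to 19 and 1.81 in 195 cells with 20 or more. The Pearson correlation of log2(UMI + 1) across cells was 0.463 for P45 (389 cells), 0.598 for P50 (450), 0.581 for P63 (136), 0.241 for P80 (46) and 0.539 for P50_Depil5D (574). The cells of a library share its preparation, and the correlation is a description.

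Since the genes moved together across libraries and cells, their promoters were compared. The 250 bases before each start are printed from the RefSeq table for GRCm38.p6, minus strand, 5′ to 3′, at chr13:60936626-60936875 for Ctla2a and chr13:60897448-60897697 for Ctla2b. Capitals mark matches to 2 motifs, TGANTCA, the binding motif of AP-1 factors, and TGACGT, the core of the cyclic AMP response element.
Ctla2a promoter: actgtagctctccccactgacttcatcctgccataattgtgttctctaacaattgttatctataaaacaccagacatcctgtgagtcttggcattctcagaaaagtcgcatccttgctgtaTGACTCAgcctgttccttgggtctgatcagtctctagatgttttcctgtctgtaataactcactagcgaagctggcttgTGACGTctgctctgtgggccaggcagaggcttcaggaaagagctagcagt
Ctla2b promoter: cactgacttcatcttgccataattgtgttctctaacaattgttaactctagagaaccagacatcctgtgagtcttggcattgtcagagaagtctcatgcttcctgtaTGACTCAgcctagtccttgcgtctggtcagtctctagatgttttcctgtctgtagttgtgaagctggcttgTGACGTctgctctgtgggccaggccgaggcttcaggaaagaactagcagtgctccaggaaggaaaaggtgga

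The windows of 300 bases, these and the 50 bases after the start, were 79.2% identical over 322 aligned columns. Both held 1 match to the AP-1 motif, at position -129 from the start in Ctla2a and -143 in Ctla2b, and 1 match to the cyclic AMP core, at -50 and -72. With both strands searched, 7.81% of 32851 promoter windows of the same length held the AP-1 motif and 7.51% the cyclic AMP core. A motif of ETS factors, spelled CAGGAAG, had 1 match in Ctla2a and 2 in Ctla2b (13.3% of windows). A GATA motif, spelled AGATAA, had 1 match in Ctla2a and 0 in Ctla2b (11.2%). A RUNX motif, spelled TGTGGT, had 0 in both (16.8%). A match is a run of letters and not a measured site.

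The genes most like Ctla2a were ranked by the mean over the 5 libraries of the Pearson correlation of log2(UMI + 1) across Cd3-positive cells thinned to 1000 UMIs (46 to 574 cells per library), among 2300 genes seen in at least 5% of those cells and leaving out the Cd3 genes of the gate. The highest mean r was that of Cd7 at 0.61, a surface glycoprotein of T and natural killer cells, followed by Nkg7 at 0.60 and Fcer1g at 0.57, a signalling adaptor of Fc and natural killer receptors. Ctla2b stood next at 0.48, the same as Rgs1, a brake on G protein signalling, and Xcl1. Then came Rgs2 (0.46), the receptor chain Klrd1 (0.41), Gem (0.41), the T cell receptor chain Cd247 (0.41), the cathepsin Ctsw (0.39) and the ferritin chain Fth1 (0.35). The correlation was positive in all 5 libraries for all 12 genes, with the lowest value 0.00141 for Fth1 at P80. The gate's own Cd3g, Cd3e and Cd3d had mean r of 0.60, 0.54 and 0.36.

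**Figure D4:**
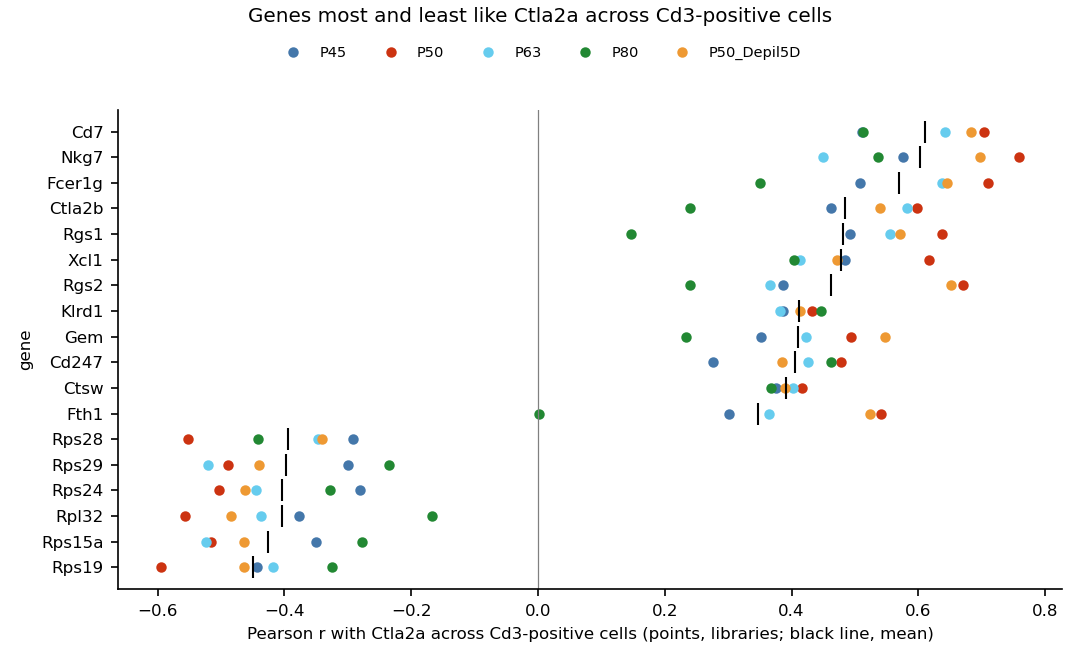
Pearson correlation with Ctla2a across Cd3-positive cells (horizontal axis) for the 12 genes of highest and the 6 genes of lowest mean (vertical axis). Points are libraries and the black line is their mean. All points of the upper 12 genes lie above 0, from 0.61 on average for Cd7 to 0.35 for Fth1, and all points of the 6 ribosomal protein genes lie below.

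The lowest correlations belonged to ribosomal protein genes. Rps19 was the lowest at -0.45, and the 6 lowest were Rps19, Rps15a, Rpl32, Rps24, Rps29 and Rps28. Of the 50 lowest genes 46 were ribosomal, and 87 of the 88 ribosomal protein genes counted had a negative mean r. In cells thinned to 500 UMIs, 3 of the 6 lowest genes were shared. In thinned cells all genes share a fixed total of 1000 UMIs. Of 16 epidermal T cell genes detected widely enough, 9 had a positive r in all 5 libraries, beside 355 of all 2300 genes. Their median of the mean r was 0.20 beside 0.02 over all genes, and this list was set with results of these data known. Of 9 conventional and regulatory T cell genes 1 was positive in all 5 libraries, Itgb7, the integrin chain that pairs with Itgae. The median of these 9 genes was -0.11.

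Across the 26 points of library and gate with at least 20 cells, the level of Ctla2a on log2(CPM + 10) was most like that of Cntn1 (r = 0.95), Ctla2b (0.95), Nrgn (0.95), Ctsw (0.94), Sytl3 (0.94) and Tnfrsf9 (0.94). Sytl3 had the highest P50 over P45 ratio of these 6 genes, 7.59 (5.78 to 10.1), at 42.8 CPM in Cd3-positive cells of P45, 325 for P50, 30.9 for P63, 50.2 for P80 and 391 for P50_Depil5D. These points share libraries and are no independent samples.

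The targets and fellow inhibitors of the CTLA-2 family were laid out over the same cells. Cathepsin L (Ctsl), the enzyme whose propeptide the family resembles, was at 9.75 CPM in Cd3-positive cells over all libraries, at 146 CPM in macrophages and at 267 in the 36 endothelial cells. Ctsb, Ctss and Ctsz, lysosomal cathepsins, were at 156, 97.9 and 60.3 CPM in Cd3-positive cells and at 1746, 1439 and 404 CPM in macrophages. These cathepsins were thus lower in Cd3-positive cells than in macrophages, the reverse of the CTLA-2 genes. Ctsw, the cathepsin of cytotoxic lymphocytes, was the exception, with 835 CPM in Cd3-positive cells against 13.4 in dendritic cells and 18.5 in macrophages. Its level was 547 CPM for P45, 1099 for P50, 528 for P63, 390.4 for P80 and 1093 for P50_Depil5D.

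**Figure D5:**
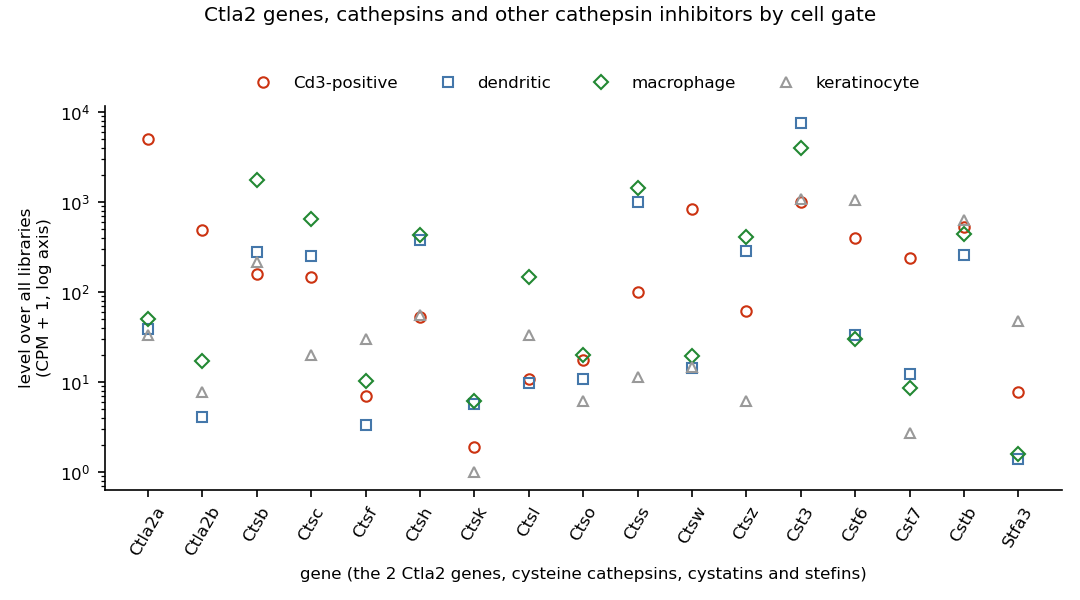
Level summed over all libraries (vertical axis, CPM + 1, log axis) of the CTLA-2 genes and of the cysteine cathepsins, cystatins and stefins with at least 100 UMIs in all cells (horizontal axis), in 4 gates (symbols). Ctla2a, Ctla2b, Ctsw and Cst7 are highest in Cd3-positive cells, and Ctsb and Ctsl in macrophages.

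Among the other inhibitors, Cst7, a cystatin of cytotoxic and myeloid cells, had the most similar pattern, with 239 CPM in Cd3-positive cells, 11.4 in dendritic cells and 7.53 in macrophages. In Cd3-positive cells Cst7 was 77.3 CPM for P45, 383 for P50, 160.2 for P63, 61.4 for P80 and 349 for P50_Depil5D, and P50 over P45 was 4.96 (4.01 to 6.16). Cst3, the secreted cystatin C, was highest in dendritic cells with 7492 CPM and in Cd3-positive cells was at 1726 CPM at P45 and 668 at P50. Cstb, the stefin of the cytosol, was between 259 and 626 CPM in the 4 gates of dendritic cells, macrophages, Cd3-positive cells and keratinocytes. Of the 10 cysteine cathepsins 9 had enough UMIs to be counted from P45 to P50. Ctsw and Ctsc, the activator of granzymes, were at 2.01 and 1.96 times their P45 level, Ctss was at 0.343 of it and past 2-fold lower, and no cathepsin was past 2-fold higher on the scale with 10 CPM added. The median log2 ratio of the list was 0.15 beside -0.04 over all genes counted. Of 5 cystatins and stefins 2 were past 2-fold higher, Cst7 and Cstb, and 1 past 2-fold lower, Cst3, beside 3.02% and 3.55% of all genes.

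Most neighbours of the pair on chromosome 13 went undetected. A cluster of cathepsins known from the placenta (Ctsj, Ctsq, Ctsr, Cts6, Cts7, Cts8 and Ctsll3) and the trophoblast genes Tpbpa and Tpbpb lie around the CTLA-2 genes, with Tpbpb between the 2 members. These genes, with Cts3, Ctsm and BC051665, made up the 12 genes of that list in the table, and all had 0 UMIs in all 6162 cells, beside 24035 UMIs of Ctla2a and 2371 of Ctla2b. The exception outside the list was 4930486L24Rik, a protein-coding gene on the same strand beside Ctla2b, with 208 UMIs, 172 of them in Cd3-positive cells. It was looked at after its counts were seen. The annotation also has gene models on the same strand (Gm49391, Gm49392 and Gm49393) that overlap a member, and they were not analysed here.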

How the data were processed

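The authors' deposited matrices hold whole-number UMI counts per gene and barcode. The submitters' processing notes name the mm10 build and Seurat without a version. No source used here gives the aligner, counting tool or cell calling. A cell needed at least 200 genes, and over 10% mitochondrial UMIs excluded it, which took out 61 cells. Scrublet (scanpy 1.11.5) only marked cells. Gates use the marker UMIs named in the report, and cells past more than 1 gate were left out of the gates. Levels are summed UMIs as CPM with exact Poisson intervals, shares have Clopper-Pearson intervals and ratios exact conditional intervals, with a floor of 3 UMIs for a count of 0. PCR copies are collapsed by the molecular identifiers. No p-value was computed. Genes counted as past 2-fold had at least 10 UMIs over the libraries compared, and 10 CPM was added to each level. edgeR 4.0.16 served only for TMM factors as an alternative scaling. Genes were named by a rule: the members, the 12 most and 6 least correlated genes across cells, the 6 most correlated across gates, and the listed pathway genes. The members, markers, lists and that rule were chosen with earlier results of these data known. Sequences were taken from GENCODE vM21 transcripts and the RefSeq promoter table (GRCm38.p6). The exact ratio intervals were checked on simulated counts. 1 further T cell subset and its gene list are not reported here.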

Additional observations from a re-analysis of the deposited data

How the results depend on the processing

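No paired analysis was possible because each group holds 1 library. The ratios to dendritic cells, the UMI ratio of the 2 genes, P80 over P45 and depilated over P50 were recomputed under other gates and filters, and the last 2 also under TMM scaling. The UMI ratio of Ctla2a to Ctla2b (10.3 as a mean over libraries) ranged from 10.1 to 10.4, and depilated over P50 for Ctla2b (0.989) from 0.948 to 1.05. Counting cells that pass more than 1 gate lowered Cd3-positive over dendritic to 22.9 for Ctla2a and 27.2 for Ctla2b, and NK-gated over dendritic to 3.77. P80 over P45 for Ctla2a (0.908) became 0.706 with a Cd3 gate of 1 UMI, 1.05 with a gate of 4 UMIs, 1.32 and 1.27 with keratinocyte gates of 1% and 0.5%, 0.603 in cells of at least 500 genes, 1.37 as a mean over single cells, 1.85 without shared barcodes and 1.98 without shared barcodes and low-share cells. For Ctla2b (0.918) it became 1.36 with a keratinocyte gate of 1%, 1.46 as a mean over cells, 1.73 without shared barcodes and 1.83 without both kinds of cells. Depilated over P50 for Ctla2a (0.885) became 0.844 with a keratinocyte gate of 4%, 0.859 without shared barcodes and 0.858 without both. The cause of these shifts was not tested. The settings that leave out low-share cells together with shared barcodes, and the gate of 0.5%, were chosen after seeing the data. Of the 12 genes most like Ctla2a 11 or 12 were shared under each of 9 alternatives, and of the 6 least like 3 at 500 UMIs and 5 or 6 otherwise. Precision is limited most in P80, with 81 Cd3-positive cells and 247 Ctla2a UMIs.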

Other observations

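Cells past more than 1 gate, which the report leaves out, carried both genes. Their Ctla2a level was 807 CPM for P45, 1043 for P50, 399 for P63, 429 for P80 and 1630 for P50_Depil5D, and 42.9% to 85.7% of these cells had a Ctla2a UMI. Cells in no gate had 34.7 to 118 CPM of Ctla2a. The only cell in the mast gate had 3 Ctla2a UMIs and 1 Ctla2b UMI. Across Cd3-positive cells the gene most like Ctla2b, the Cd3 genes left out, was Ctla2a (mean r = 0.48), followed by Fcer1g (0.44) and Rgs1 (0.38).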
